A study of Mus musculus with 12 samples.

Results

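The 32 genes described here are transcripts used to recognise astrocytes in the mouse spinal cord. They were taken by gene symbol from the deposited gene tables, which list 38924 genes. The 12 in the first list mark resting astrocytes (Agt, Aldh1l1, Aldoc, Aqp4, Atp1b2, Fgfr3, Gja1, Gjb6, Gpr37l1, S100b, Slc4a4 and Sox9). The 20 in the second list are raised when astrocytes react to injury or inflammation (Gfap, Vim, Serpina3n, Lcn2, Steap4, S1pr3, Timp1, Cxcl10, Cd44, Osmr, Cp, Aspg, Ggta1, Gbp2, Fbln5, Srgn, Emp1, Stat3, Tm4sf1 and Clu). All 32 symbols were found and all 32 had enough counts to be tested, within 17980 tested genes.

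Polyadenylated RNA of the whole spinal cord was sequenced from 12 mice aged 8 weeks on a B6J;CAST strain background. Of these, 6 were wild type (WT, 3 females and 3 males) and 6 were heterozygous for the P278KY allele of Gars (P278KY below, 3 females and 3 males). Gars encodes glycyl-tRNA synthetase, which loads glycine onto its tRNAs for translation. Dominant changes in it cause a form of Charcot-Marie-Tooth disease, an inherited neuropathy of motor and sensory axons. The allele is in the germ line, so every cell type of the cord carries it, and each library is 1 mouse.

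Astrocytes are the glial cells that clear potassium, glutamate and water from the space around neurons and line the blood vessels of the cord. After injury or in neurodegeneration they enlarge, make more of the intermediate filaments GFAP and vimentin, and switch on secreted and surface proteins, in part through cytokine receptors of the gp130 family and the transcription factor STAT3. Many genes of the reactive list are also transcribed by endothelial cells, fibroblasts or leukocytes. In bulk tissue fewer cells of a type and less RNA per cell cannot be told apart.

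Total expected counts per library ranged from 26982140 to 39339999. Homeobox (Hox) genes that mark the spinal cord were detected for 10 of 10 listed genes, with summed levels of 299.3 to 365.8 counts per 1000000 counts of the library (CPM) in WT and 343.6 to 364.3 CPM in P278KY mice. The library of WT female 1 stood furthest apart. Its lung markers summed to 1011 CPM against 1.684 to 4.231 CPM in the other 11 mice, and its skeletal muscle markers summed to 10980 CPM. Those muscle markers were also raised in WT female 2 (2608 CPM), P278KY female 3 (4211 CPM) and P278KY female 4 (1592 CPM) against 105.7 to 353.1 CPM in mice 5 to 12. Sensory ganglion markers summed to 86.25, 48.51 and 39.89 CPM in P278KY male 7, WT female 10 and WT male 11 against 19.18 to 28.32 CPM in the others. Counts of genotype calls in the main test, and the genes that a call or a sign turns on, are given with WT female 1 and without it.

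Per unit of transcript length, the genes spanned more than 3 orders of magnitude. In transcripts per 1000000 transcripts (TPM), the median over 12 mice was highest for Gfap (1435 TPM), the main intermediate filament of astrocytes. It was followed by Aldoc (1336 TPM), a glycolytic aldolase, Atp1b2 (1002 TPM), a beta subunit of the sodium-potassium pump, S100b (892 TPM), a calcium-binding protein, and Clu (777.4 TPM), a secreted chaperone. A second tier between 100 and 300 TPM held Gpr37l1 (293.1 TPM), Aqp4 (274.0 TPM), Gja1 (236.7 TPM), Agt (234.2 TPM), Slc4a4 (165.6 TPM), Vim (141.0 TPM), Fgfr3 (138.5 TPM) and Gjb6 (111.3 TPM). Within the resting list only Aldh1l1 (46.01 TPM) and Sox9 (21.14 TPM) lay lower. Most reactive genes were scarce, down to Timp1 (2.16 TPM), Steap4 (1.21 TPM) and Cxcl10 (0.945 TPM), and the lowest expected count of Cxcl10 in any library was 6.

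**Figure D1:**
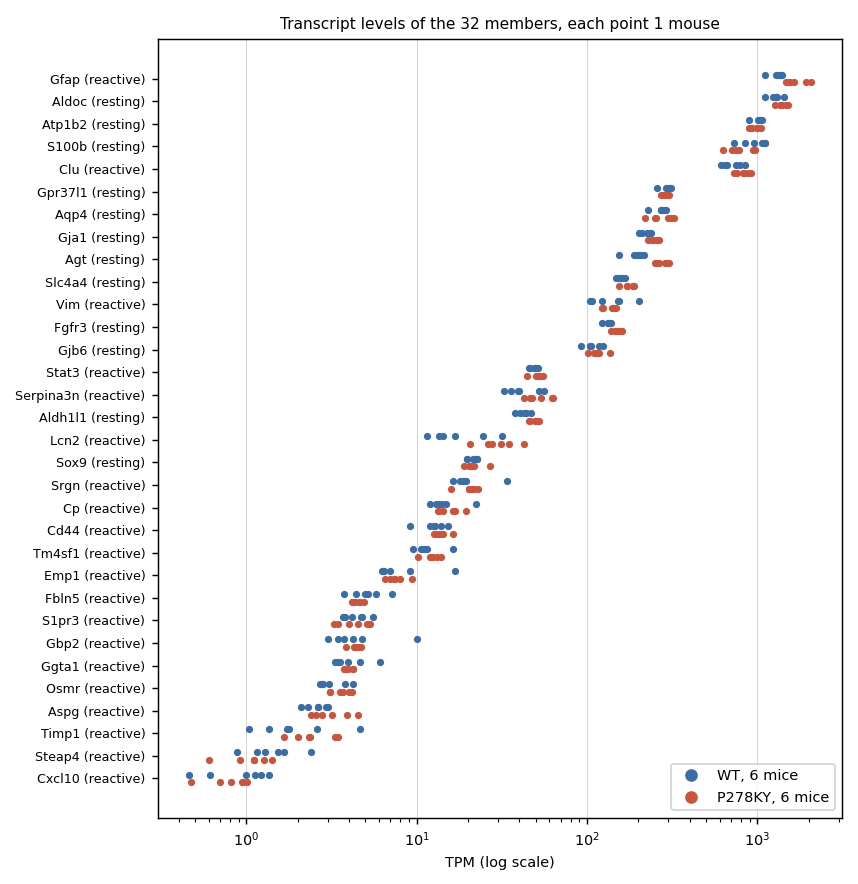
Transcript level in TPM (log axis) of the 32 genes in each of 12 mice, blue for WT and red for P278KY, ordered by the median over mice. The top 5 genes lie near or above 777.4 TPM, and the lowest 3 are Timp1, Steap4 and Cxcl10.

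Summed over the resting list, the level was 4072, 4784 and 5075 TPM in WT (lowest, median and highest mouse) and 4465, 4709 and 5120 TPM in P278KY mice. The genotypes overlapped in this sum. Summed over the reactive list it was 2193, 2390 and 2502 TPM in WT and 2682, 2801 and 3216 TPM in P278KY mice, so every P278KY mouse lay above every WT mouse. Gfap alone supplied 50.7% to 65.6% of that sum, and the other 19 reactive genes summed to 959.8, 1080.0 and 1138 TPM in WT and 1085, 1189 and 1297 TPM in P278KY mice, which overlapped. Most of the sum of these 19 was Clu, at 613.4 to 844.6 TPM in WT and 730.0 to 921.8 TPM in P278KY mice. On the log2(TPM + 1) scale the median change of all tested genes was 0.06. TPM add up to the same total in every library, so this is an offset of the median gene and not a general rise. In CPM the reactive sum was 2534 to 2904 in WT and 2949 to 3671 in P278KY mice, also without overlap. Gfap itself overlapped in CPM (1502 to 1906 in WT and 1859 to 2673 in P278KY mice).

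The question put to the 32 genes was whether the cord of P278KY mice carries a sign of altered or reactive astrocytes. With all 12 mice, 1 of 32 genes rose (Agt) and 0 fell (edgeR's quasi-likelihood test, adjusted p under 0.05, Benjamini-Hochberg over 17980 genes). Of all tested genes, 5.32% changed, 2.36% upward and 2.95% downward. Before adjustment, 10 of the 32 genes had p under 0.05, which were 6 resting and 4 reactive genes, against 20.2% of all tested genes. The log2 changes ran from -0.36 to 0.44 in the resting list, with a median of 0.06, and from -0.55 to 0.62 in the reactive list, with a median of -0.01. The median over all tested genes was 0.00.

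Without WT female 1, 7 of the 32 had an unadjusted p under 0.05, against 22.4% of all tested genes. Then 1 of 32 genes rose (Agt), where 3.14% of 18219 tested genes did, and 2 fell (Atp1b2 and Gpr37l1), where 4.46% did. The medians of the log2 changes were then 0.03 for the resting and 0.09 for the reactive list. The genotypes did not overlap in CPM for 1 of 32 genes with all mice, against 3.73% of tested genes, and for 3 of 32 without WT female 1, against 6.09%.

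**Figure D2:**
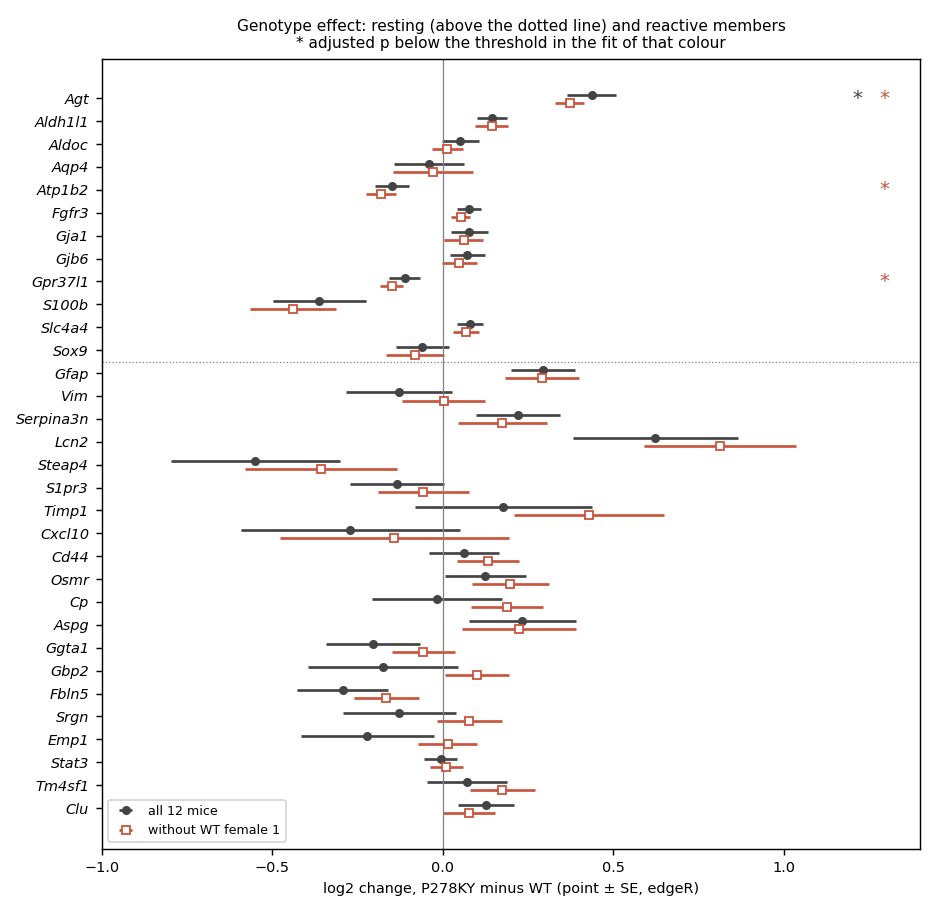
Log2 change in P278KY relative to WT mice for each gene, with its standard error, from all 12 mice (filled) and without WT female 1 (open). Stars mark an adjusted p under 0.05 in the fit of that colour, which only Agt reaches in both, and Atp1b2 and Gpr37l1 reach without WT female 1.

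Agt encodes angiotensinogen, the precursor of the angiotensin peptides, which astrocytes make in the central nervous system. It is ENSMUSG00000031980 at chr8:124556534-124569706 on the minus strand of GRCm38 (GENCODE M21). The level was 146.4, 189.8 and 199.4 CPM in WT (lowest, median and highest of 6) and 231.8, 242.7 and 272.6 CPM in P278KY mice. Every P278KY mouse was above every WT mouse, and the lowest WT value was that of WT female 1. The means were 182.6 ± 19.2 CPM (SD, n = 6) and 247.2 ± 17.5 CPM (SD, n = 6), a 1.35-fold difference. In edgeR the log2 change was 0.44 (SE 0.07, adjusted p = 0.00465), and without WT female 1 it was 0.37 (SE 0.04, adjusted p = 0.000289). Agt passed in 12 of 12 fits that left out 1 mouse each, with adjusted p between 0.000289 and 0.0169 (edgeR). By sex, in 1 fit of 4 groups, it was 0.51 in females (SE 0.10, adjusted p = 0.0585) and 0.37 in males (SE 0.10, adjusted p = 0.115), and neither passed in that fit. Fitted on the males alone it passed (log2 change 0.37, adjusted p = 0.0088), and on the females alone it did not (0.50, adjusted p = 0.266). Over all genes, 350 of 17274 passed in males alone and 68 of 17500 in females alone, a fit that holds WT female 1.

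The other measured genes of the angiotensin system did not pass. Of 11 listed genes, 9 were tested and 0 rose or fell (edgeR, median log2 change -0.06, and 0.08 without WT female 1), with Ren1, the renin that cleaves angiotensinogen, and the receptor gene Agtr1b too low to test. Ace, the converting enzyme, was 63.56 CPM in WT female 1, 28.92 to 32.03 CPM in the other WT mice and 30.11 to 32.73 CPM in P278KY mice. Its log2 change was -0.16 (adjusted p = 0.701, edgeR) with that mouse and 0.08 (adjusted p = 0.245) without it. The receptor genes Agtr1a and Agtr2 had log2 changes of 0.00 (adjusted p = 0.998) and -0.23 (adjusted p = 0.142), and of 0.23 and -0.26 without WT female 1. Without WT female 1, 1 of the 9 rose, Lnpep, an aminopeptidase that binds angiotensin IV, with a log2 change of 0.29 (adjusted p = 0.0111). Of all tested genes, 5.32% changed with all mice, and 3.14% rose without WT female 1.

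The promoters of Agt and Gfap are shown because Agt is the gene that rose, Gfap is the most abundant reactive gene, and both hold a match to the palindromic STAT motif TTCNNNGAA, which reads the same on both strands. RefSeq promoters (GRCm38.p6, from 250 bases before to 50 after the transcript start) were searched for 28 of 32 genes. Atp1b2, Sox9 and Clu had no entry among them. Aqp4 was not searched, because promoters of the chromosome that carries it were left out beforehand. The motif was present in 5 of 28 genes (17.9%: Agt, Aldoc, Emp1, Gfap and Steap4). Over all genes with a searched promoter it was present in 9.55%, and over the 32851 searched promoters in 8.3%. Neither percentage covers the chromosome that was left out. The Agt match begins 172 bases before the start, and the stretch is chr8:124569707-124569956, minus strand, just upstream of the gene. The Gfap match begins 2 bases before the start and runs into the first exon, in chr11:102897194-102897450, minus strand, which lies within the GENCODE M21 bounds of the gene (chr11:102887336-102900912). Both are written 5′ to 3′ with the match in capitals, which is a description of the letters and not of binding.
Agt: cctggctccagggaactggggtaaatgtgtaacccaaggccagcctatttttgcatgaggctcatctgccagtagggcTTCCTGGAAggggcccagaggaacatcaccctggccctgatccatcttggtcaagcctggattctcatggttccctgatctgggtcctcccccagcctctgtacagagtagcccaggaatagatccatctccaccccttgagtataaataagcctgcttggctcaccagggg
Gfap: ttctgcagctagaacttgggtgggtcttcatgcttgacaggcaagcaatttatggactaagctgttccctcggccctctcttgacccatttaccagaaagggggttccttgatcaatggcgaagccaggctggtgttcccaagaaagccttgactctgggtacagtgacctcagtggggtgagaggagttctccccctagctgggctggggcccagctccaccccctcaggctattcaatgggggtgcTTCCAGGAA
In the other genes the matches were TTCAGTGAA and TTCCAGGAA in Aldoc (124 and 83 bases before the start), TTCTTTGAA and TTCATAGAA in Emp1 (120 and 22 bases) and TTCCCGGAA in Steap4 (116 bases). Of these 5 genes, Agt alone rose in edgeR.

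Atp1b2 and Gpr37l1 were lower in P278KY mice once WT female 1 was left out. Atp1b2 was 1322, 1487 and 1516 CPM in WT and 1211, 1311 and 1449 CPM in P278KY mice. WT female 1 was the lowest WT mouse, and the other 5 WT mice (1459 to 1516 CPM) all lay above all P278KY mice. Its log2 change was -0.15 (SE 0.05, adjusted p = 0.108, edgeR) with all mice and -0.18 (SE 0.04, adjusted p = 0.0272) without WT female 1. Gpr37l1 encodes an orphan receptor of astrocytes. It was 296.9, 342.3 and 363.6 CPM in WT and 289.7, 315.0 and 329.1 CPM in P278KY mice, and again the lowest WT value was that of WT female 1, with the others at 336.2 to 363.6 CPM, clear of the P278KY mice. Its log2 change was -0.11 (SE 0.05, adjusted p = 0.193, edgeR) and -0.15 (SE 0.03, adjusted p = 0.0178) without that mouse. In TPM the genotypes overlapped for both genes, also without WT female 1. Atp1b2 was then 1012 to 1071 TPM in WT and up to 1049 TPM in P278KY mice, and Gpr37l1 290.7 to 313.1 TPM in WT and up to 301.3 TPM. With all mice, limma on log2(TPM + 1) gave changes of -0.07 (adjusted p = 0.402) for Atp1b2 and -0.03 (adjusted p = 0.699) for Gpr37l1. On that scale the median change of all tested genes was itself moved up by 0.0652 relative to the main test. Gpr37l1 has 1 listed transcript of 2269 bases, so its full length was the same in every mouse.

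S100b was among the most variable genes of the resting list. It was 531.8, 739.4 and 788.0 CPM in WT and 422.9, 525.9 and 664.2 CPM in P278KY mice. WT female 1 lay within the P278KY range, as did WT male 5 at 612.1 CPM, so the genotypes overlapped. The log2 change was -0.36 (SE 0.14, adjusted p = 0.169, edgeR) and -0.44 (SE 0.13, adjusted p = 0.0700) without WT female 1. Schwann cells and oligodendrocytes also make S100B, and the summed Schwann cell markers were 1912 to 2686 CPM in WT and 1110 to 1926 CPM in P278KY mice. With all mice 2 of 9 were lower at the threshold (Pmp2 and Gldn), against 2.95% of all tested genes. Without WT female 1 it was also 2 of 9, against 4.46%. Of those 9 markers, Mal is also counted among the oligodendrocyte myelin markers. It was 555.4 to 784.7 CPM in WT and 661.6 to 781.7 CPM in P278KY mice, a large share of the sum. The part of Schwann cell RNA in the S100b values was not tested.

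The remaining resting genes differed by smaller amounts. Aldoc was 1020, 1183 and 1269 CPM in WT and 1111, 1193 and 1296 CPM in P278KY mice, overlapping over most of their range, with a log2 change of 0.05 (SE 0.05, adjusted p = 0.662), and 0.01 without WT female 1. Aldh1l1, the folate enzyme most often used to label astrocytes, had a log2 change of 0.14 (SE 0.04, adjusted p = 0.0825), and 0.14 without WT female 1. It passed in edgeR only where WT male 5, the highest WT mouse, was left out (adjusted p = 0.0239). Fgfr3, a growth factor receptor, and Slc4a4, a sodium bicarbonate cotransporter, had log2 changes of 0.08 (adjusted p = 0.231) and 0.08 (adjusted p = 0.263). The connexins that couple astrocytes, Gja1 (connexin 43) and Gjb6 (connexin 30), had log2 changes of 0.08 (adjusted p = 0.470) and 0.07 (adjusted p = 0.479). The water channel gene Aqp4 and the transcription factor gene Sox9 had log2 changes of -0.04 (adjusted p = 0.871) and -0.06 (adjusted p = 0.735).

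**Figure D3:**
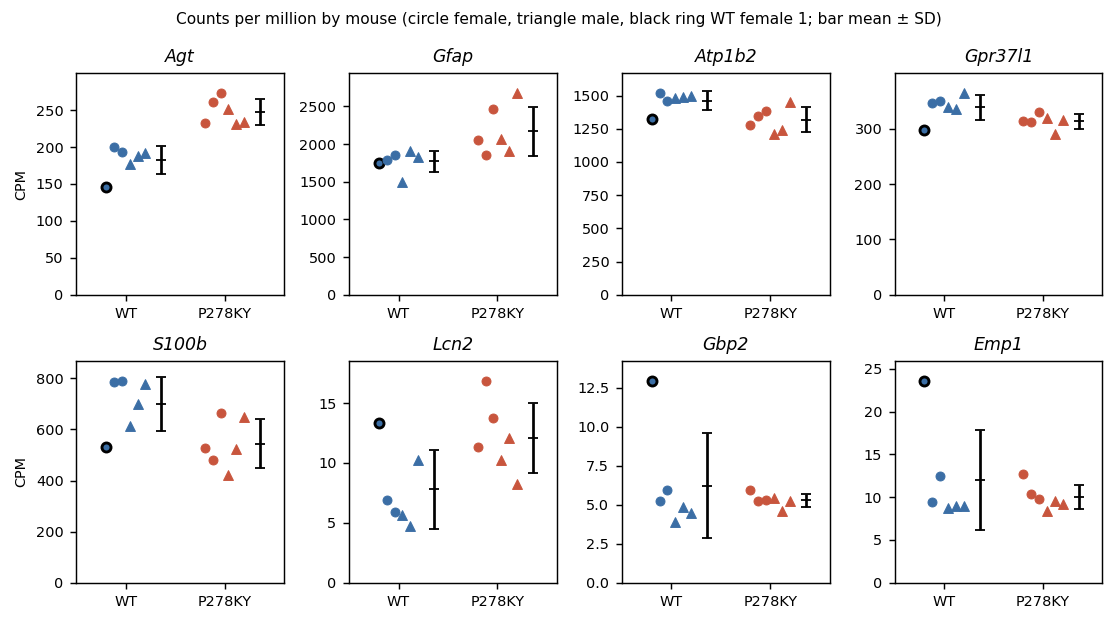
CPM of 8 genes in each mouse (circles females, triangles males, ringed point WT female 1), with bars for mean ± SD of 6 mice per genotype, on axes from 0. Agt separates the genotypes, Atp1b2 and Gpr37l1 separate them apart from WT female 1, and in Gbp2 and Emp1 that mouse lies far above the other 11.

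In the reactive list 0 of 20 genes rose or fell, with and without WT female 1 (edgeR). Of all tested genes, 2.36% rose and 2.95% fell with all mice, and 3.14% and 4.46% without WT female 1. Before adjustment 4 of the 20 had p under 0.05 with all mice (Gfap, Lcn2, Steap4 and Fbln5), against 20.2% of all tested genes. Without WT female 1 it was 2 of the 20, against 22.4%. Gfap was 1502, 1811 and 1906 CPM in WT and 1859, 2057 and 2673 CPM in P278KY mice. Only P278KY female 4 (1859 CPM) fell below the highest WT mouse, and P278KY female 9 and male 8 stood highest at 2465 and 2673 CPM. The means were 1772 ± 142 CPM (SD, n = 6) and 2171 ± 325 CPM (SD, n = 6), a 1.23-fold difference, and the log2 change was 0.29 (SE 0.09, adjusted p = 0.0962, edgeR). It was 0.29 (SE 0.11, adjusted p = 0.150) without WT female 1. The call depended on the method, since DESeq2's Wald test gave an adjusted p of 0.0167 and limma on log2(TPM + 1) gave 0.0318. In TPM the genotypes did not overlap for Gfap, with a highest WT value of 1401 TPM and a lowest P278KY value of 1470 TPM. On the log2(TPM + 1) scale the median change of all tested genes was itself moved up by 0.0652 relative to the main test.

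Lcn2, a secreted iron-siderophore carrier, had the largest positive log2 change of the 32 genes, and its mice are given although it did not pass. It was 4.76, 6.40 and 13.3 CPM in WT and 8.26, 11.7 and 16.8 CPM in P278KY mice, and the genotypes overlapped through WT female 1 (13.3 CPM) and WT male 12 (10.2 CPM). The log2 change was 0.62 (SE 0.24, adjusted p = 0.174, edgeR) and 0.81 (SE 0.22, adjusted p = 0.0557) without WT female 1. It was called by limma voom with sample weights (adjusted p = 0.0259). Neutrophils are another source of Lcn2, and 9 neutrophil and marrow markers were all detected, with 0 of 9 past the threshold and a median log2 change of 0.57. Without WT female 1 it was again 0 of 9, with a median of 0.76. The markers summed to 165.3 and 161.8 CPM in WT female 1 and WT male 12, 69.15 to 91.08 CPM in the other 4 WT mice and 126.5 to 213.6 CPM in P278KY mice. The 8 mice with the higher marker sums were thus the 8 mice with the higher Lcn2 levels. The part of neutrophil or marrow RNA in Lcn2 was not tested.

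Clu was 536.1, 616.2 and 712.3 CPM in WT and 603.1, 691.9 and 763.2 CPM in P278KY mice, overlapping, with a log2 change of 0.13 (SE 0.08, adjusted p = 0.428, edgeR), and 0.08 without WT female 1. Vim, the second filament protein gene, was 83.0, 114.4 and 165.0 CPM in WT and 95.4, 102.2 and 122.5 CPM in P278KY mice. The WT range enclosed all P278KY mice, with WT female 1 at its top. Its log2 change was -0.13 (SE 0.16, adjusted p = 0.714) and 0.00 without that mouse. Serpina3n, a protease inhibitor with close paralogs among which reads may be divided, had a log2 change of 0.22 (adjusted p = 0.364). Stat3 was 86.8, 93.0 and 98.1 CPM in WT and 83.5, 94.0 and 97.25 CPM in P278KY mice, with nearly the same range, and its log2 change was -0.01 (SE 0.05, adjusted p = 0.962).

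WT female 1 was high for most of the reactive list. It was the highest of the 6 WT mice for 16 of 20 reactive and 0 of 12 resting genes, and the highest of all 12 mice for 15 reactive genes. Across all tested genes it was the highest WT mouse in 27% and the lowest in 25.7%, and it was the lowest for 8 of 12 resting genes. Relative to the median of the other 5 WT mice its level was 2.75-fold for Timp1, a metalloproteinase inhibitor, 2.67-fold for Gbp2, an interferon-induced GTPase, and 2.63-fold for Emp1, a membrane protein. Endothelial markers summed to 537.8 CPM in this mouse against 353.9 to 447.3 CPM in the other 11, and fibroblast and meningeal markers to 1299 CPM against 437.5 to 774.2 CPM. Red blood cell markers summed to 5439 CPM in it against 1085 to 3000 CPM in the others. The part of these cells in the reactive genes was not tested.

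Leaving this mouse out turned the sign of the log2 change for 6 reactive genes, none of which passed in either fit. Gbp2 was 3.88, 5.04 and 12.9 CPM in WT and 4.57, 5.28 and 5.91 CPM in P278KY mice, and its log2 change went from -0.18 (SE 0.22) to 0.10 (SE 0.09). Emp1 was 8.71, 9.23 and 23.6 CPM in WT and 8.44, 9.71 and 12.7 CPM in P278KY mice, going from -0.22 (SE 0.20) to 0.01 (SE 0.09). In both genes the highest WT value was WT female 1 and the remaining WT mice overlapped the P278KY mice. Srgn, a proteoglycan core protein gene, was 6.27, 7.76 and 14.3 CPM in WT and 6.67, 7.74 and 8.96 CPM in P278KY mice, going from -0.13 (SE 0.17) to 0.08 (SE 0.10). Cp, the ferroxidase ceruloplasmin, was 17.7, 25.3 and 42.6 CPM in WT and 23.1, 25.9 and 32.7 CPM in P278KY mice, going from -0.02 (SE 0.19) to 0.19 (SE 0.11). For these too, WT female 1 was the top of the WT range. Vim and Stat3 complete the 6, with values near 0 in the second fit.

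Of the 20 reactive genes, 9 had a positive log2 change with all mice and 15 without WT female 1. For most of those not yet described, leaving out this mouse moved the log2 change by more than 1.5 times. Steap4, a metalloreductase, went from -0.55 (SE 0.25, adjusted p = 0.234) to -0.36 (SE 0.22, adjusted p = 0.387). Fbln5, an elastic fibre protein gene, went from -0.29 (SE 0.13, adjusted p = 0.243) to -0.17 (SE 0.10, adjusted p = 0.341). The chemokine gene Cxcl10 went from -0.27 to -0.14, the glycosyltransferase gene Ggta1 from -0.20 to -0.06 and the receptor gene S1pr3 from -0.14 to -0.06. Timp1 went from 0.18 to 0.43, Tm4sf1 (an L6-family membrane protein) from 0.07 to 0.17 and Cd44 (hyaluronan receptor) from 0.06 to 0.13. Osmr, the oncostatin M receptor gene, went from 0.13 to 0.20, and Aspg (asparaginase) was 0.23 and 0.22. All of these missed the threshold in both edgeR fits. Timp1, Cxcl10 and Cp overlap a protein-coding gene on the other strand (Syn1, Art3 and Hps3), as do S100b (Dip2a) and Stat3 (Stat5a). Whether strand was used in counting is not given in the sources used here.

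**Figure D4:**
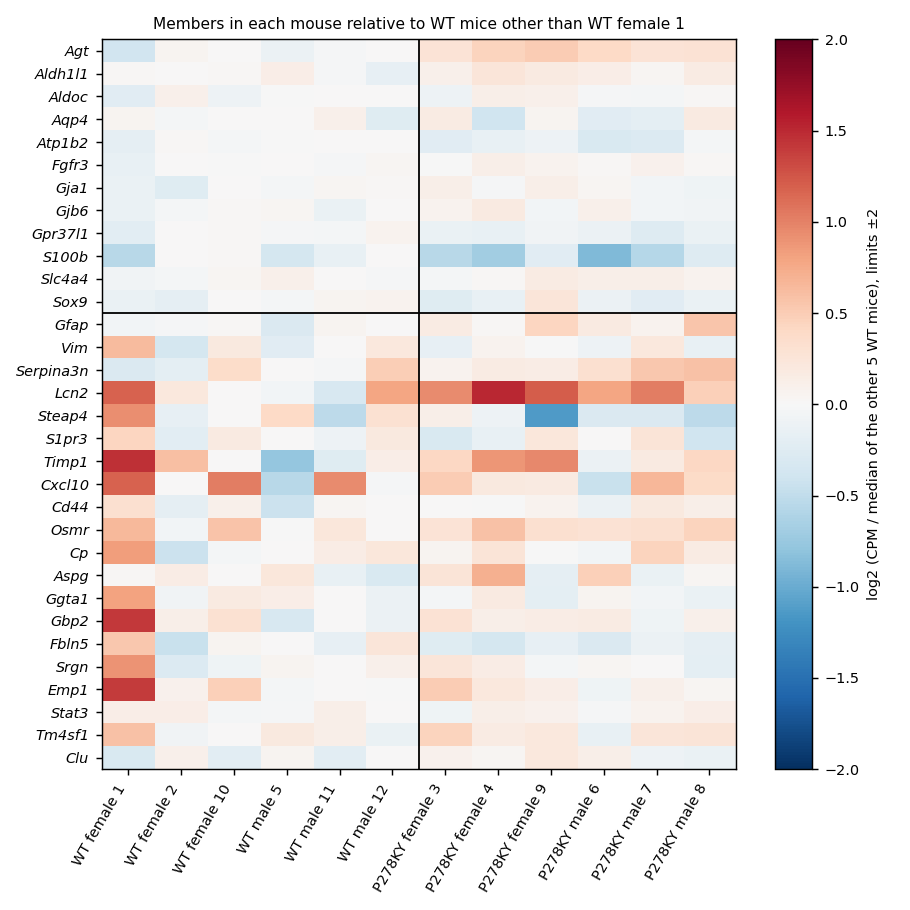
Level of each gene in each mouse as log2 of CPM over the median of the 5 WT mice other than WT female 1, resting genes above the line and reactive genes below, WT left and P278KY right. The first column, WT female 1, is raised across most reactive genes, Agt is raised in the 6 P278KY columns, and Lcn2 is raised in those columns and in WT female 1 and WT male 12.

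The lists differed in how much mice of one genotype varied. In WT the median coefficient of variation of CPM was 6.74% for the resting and 24.5% for the reactive genes, and it was 4.67% and 16.2% without WT female 1. In P278KY mice it was 6.51% and 13%. Over all tested genes it was 9.09% in WT and 8.05% in P278KY mice. Most reactive genes were also scarcer than the resting genes, and the part of counting error in their spread was not tested.

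The genotype effect was compared between the sexes and the sexes were compared with each other. For 0 of 32 genes did the effect differ between males and females (edgeR interaction term), as for 0% of all 17980 genes, and 1 gene, Gja1, had an unadjusted p under 0.05 (adjusted p = 1, male minus female effect -0.24 on the log2 scale, edgeR), against 3.7% of all genes. DESeq2 also called 0. Between males and females, 0 of 32 genes passed (edgeR), where 0.0890% of all genes did, and 4 had an unadjusted p under 0.05 (Timp1, Emp1, Gbp2 and Serpina3n, lowest adjusted p = 0.377), against 8.95% of all genes. Timp1, Emp1 and Gbp2 are the 3 genes that were highest in WT female 1 relative to the other WT mice, and for all 3 the male minus female log2 change was negative (-0.82, -0.52 and -0.49). For 19 genes with more than 1 length value, the mean transcript length weighted by isoform use was compared between genotypes with limma. For 0 of 19 did it pass, where 0.0191% of 10490 genes did. Unadjusted p was under 0.05 for 2, against 6.32% of the 10490. These were Fgfr3 (mean length 3643 bases in WT and 3559 bases in P278KY mice, adjusted p = 0.591) and Tm4sf1 (2074 and 2160 bases, adjusted p = 0.719).

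Beyond the 32 genes, 33 other astrocyte genes were all tested, and 2 rose and 4 fell (edgeR, median log2 change 0.01). Of all tested genes, 2.36% rose and 2.95% fell. Without WT female 1, 3 rose and 5 fell (median -0.02), against 3.14% and 4.46% of all tested genes. The 2 added were Apoe and Cldn10. The 4 with the lowest p are named. Slc1a3, the glutamate transporter GLAST, rose from 104.8 ± 4.06 to 135.3 ± 4.64 CPM (SD, n = 6 each), with a log2 change of 0.37 (SE 0.03, adjusted p = 6.4e-05). Kcnj10, the inward rectifier potassium channel Kir4.1, fell from 1089 ± 62.0 to 861.6 ± 32.4 CPM (SD, n = 6 each), with a log2 change of -0.34 (SE 0.04, adjusted p = 0.000686). Slc14a1, a urea transporter, rose from 35.1 ± 1.22 to 43.7 ± 3.04 CPM (SD, n = 6 each), with a log2 change of 0.31 (SE 0.05, adjusted p = 0.00195). Without WT female 1 the log2 changes of Slc1a3, Kcnj10 and Slc14a1 were 0.38, -0.37 and 0.31, and all 3 passed. In females alone Kcnj10 (adjusted p = 0.232, edgeR) and Slc14a1 (0.111) did not pass, nor did Slc14a1 in males alone (0.0669). With all mice, no mouse of one genotype lay within the range of the other for these 3 genes. Nfia, a transcription factor of glial identity, had a log2 change of -0.13 (SE 0.03, adjusted p = 0.0188), which did not pass without P278KY male 6 (adjusted p = 0.0587) and turned positive on the TPM scale (0.09).

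Of 22 other reactive genes, 20 were tested (median log2 change -0.16, and 0.01 without WT female 1). In this list 0 rose and 1 fell, against 2.36% and 2.95% of all tested genes. The one was Nes, the filament protein nestin, with means of 43.95 CPM (WT) and 26.67 CPM (P278KY). Its log2 change was -0.72 (SE 0.11, adjusted p = 0.00441, edgeR), and -0.70 (adjusted p = 0.00964) without WT female 1. Nes did not pass without mice 1 to 4 (adjusted p = 0.051), in females alone (0.0629) or in males alone (0.0709). In the STAT3 cytokine list, 16 of 18 genes were tested and 2 fell, against 2.95% of all tested genes. These were Jak1, a kinase of these receptors, with a log2 change of -0.19 (SE 0.03, adjusted p = 0.00192), and Cntf, a ligand also made by Schwann cells, with -0.60 (SE 0.10, adjusted p = 0.00357). Jak1 was lower in all 6 P278KY mice than in any WT mouse. Its change did not pass on TPM (adjusted p = 0.101). Jak1 and Cntf had log2 changes of -0.19 and -0.60 without WT female 1, and both passed. Neither passed in females alone (adjusted p = 0.168 and 0.176, edgeR) or in males alone (0.0752 and 0.0698).

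Of 13 microglial inducer and NF-kB genes, 12 were tested and 0 passed (edgeR, median log2 change 0.00). Microglial markers summed to 334.9 to 424.4 CPM in WT and 320.9 to 389.9 CPM in P278KY mice, overlapping, with 0 of 12 past the threshold. Among the gap junction partners of the astrocyte connexins, Gjb1 (connexin 32), a gene of oligodendrocytes and Schwann cells, fell with a log2 change of -0.35 (SE 0.07, adjusted p = 0.0147, edgeR). It did not pass in females alone (adjusted p = 0.459) or without mice 7, 10 and 11 (adjusted p = 0.128). The change was -0.37 (adjusted p = 0.0107) without WT female 1. Of 12 oligodendrocyte myelin markers 0 passed, and of 6 genes that anchor Aqp4 at the astrocyte end foot 0 passed (median log2 change -0.07). Without WT female 1, 0 passed in the myelin, Aqp4 anchoring, microglial marker, and microglial inducer and NF-kB lists.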

How the data were processed

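Bowtie2 2.2.0 and RSEM 1.2.12 are named, per the submitters' processing notes. Genome build and annotation: not given in the sources used here. Each deposited table holds, per gene, the authors' expected counts, TPM and FPKM, and the gene's effective and full length weighted by isoform use. Per the labels, libraries were stranded, polyA-selected and read as 75 bp paired ends. FPKM, deposited by the authors, were not used.

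The expected counts were rounded to whole numbers, filtered with edgeR's filterByExpr and normalised with TMM. The main test was edgeR 4.0.16 (R 4.3.3), quasi-likelihood, with genotype and sex as terms over 12 mice and Benjamini-Hochberg adjustment over 17980 genes at 0.05. CPM used TMM library sizes. Lengths were tested with limma 3.58.1 on log2 length, over genes whose length varied and with an expected count of at least 10 in every library. Alternatives were DESeq2 1.42.0, limma voom with sample weights, limma on log2(TPM + 1) and log2(TPM + 0.1), other filters, unrounded counts, no sex term, each mouse left out, and sets of mice left out. The scripts were tested on simulated data. Depth was 26982140 to 39339999 expected counts per library. No pair of libraries agreed within sampling noise (median variance ratio within groups 2.898 to 7.438, where noise alone gives 1).

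The 32 genes and all lists were chosen with earlier results of these data known. Genes given by mouse passed a test, turned sign without WT female 1, or were among the 3 most abundant of their list; Lcn2, and the genes named as passing only under other methods, were chosen after their values were seen. From other lists, up to 4 passing genes were named by p. Positions are from GENCODE M21 (GRCm38), matched by gene ID for 37607 genes. The labels name separate mice but not litters. One result of the gap junction list is not reported here.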

Additional observations from a re-analysis of the deposited data

Results flagged for a closer look

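Among the 64 groups of 6 mice (32 genes in each genotype), 6 held a mouse whose gap to its nearest neighbour was too large a share of the group's range by Dixon's criterion at the 95% level, which chance reaches in about 1 in 20 groups. WT female 1 was that mouse in 5 of the 6. It was the lowest WT mouse for Atp1b2 (1322 CPM, next 1459 CPM). It was the highest for the reactive genes Gbp2 (12.9 CPM, next 5.94 CPM), Emp1 (23.55 CPM, next 12.5 CPM), Srgn (14.25 CPM, next 8.17 CPM) and Ggta1 (10.25 CPM, next 6.69 CPM). The remaining one was P278KY female 9, the highest P278KY mouse for Sox9 (55.47 CPM, next 43.6 CPM).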

How the results depend on the processing

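Of the alternatives to the genotype test, Agt missed the threshold only in females alone (log2 change 0.50, adjusted p = 0.266). In the 4-group fit it missed it in each sex. The number of the 32 genes that rose was 1 in the main test, 3 with DESeq2's Wald test (Agt, Aldh1l1 and Gfap), 2 with limma voom (Agt and Lcn2), 4 on log2(TPM + 1) and 4 on log2(TPM + 0.1) (Agt, Aldh1l1, Fgfr3 and Gfap in both), and 0 in females alone. Over all genes, rises and falls together, 956 of 17980 passed in the main test and 1617 of 17510 with DESeq2's Wald test. With limma voom 1467 of 17980 passed, and 1606 and 1622 of 17980 on log2(TPM + 1) and log2(TPM + 0.1). The number of the 32 that rose ranged from 1 to 2 when 1 mouse was left out, 2 being without WT male 5. The number that fell was 0 in the main test, 1 with DESeq2's Wald test (Atp1b2), 2 with limma voom (Atp1b2 and Gpr37l1), and 0 to 2 when 1 mouse was left out, 2 being without WT female 1. Without WT female 1, DESeq2's Wald test called 2 higher (Agt and Lcn2) and 3 lower (Atp1b2, Gpr37l1 and S100b). How many of all genes passed in that fit was not counted, so these calls have no background share. Nfia reversed on TPM (0.0857 and 0.088 with the larger and the smaller pseudocount, adjusted p = 0.285 and 0.283). The cause was not tested. TPM moved the median of all genes by 0.0652 and 0.0764. Signs of uncalled members turned for 6 genes without WT female 1 and in males alone, 5 without the mice with most muscle RNA (1 to 4), and 4 or fewer under each other alternative. Over all genes, 542 passed without P278KY male 6, 1385 without WT female 1 and 253 without the mice with most ganglion RNA (7, 10 and 11), against 956. Sex, interaction and length counts stayed at 0. No paired analysis was possible because the mouse numbers are not shared between groups. Depth limits the genes under about 1 CPM, Timp1 and Cxcl10, most.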
